A study of Homo sapiens with 4 samples.

Results

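The genes described here were the matrix metalloproteinases (MMPs), the ADAMs, the ADAMTS enzymes and the tissue inhibitors of metalloproteinases (TIMPs), measured in a leukaemia cell line and its arsenic trioxide (ATO) resistant derivative. Members were taken by the gene name printed on the array: MMP, ADAM or ADAMTS followed by a number, or TIMP1 to TIMP4, with the neutrophil granule enzymes MMP8 and MMP9 left out. The rule gave 64 of the 30811 gene names on the array, covered by 95 probes. By role these were 20 MMPs, 12 ADAMs with an active site, 9 ADAMs without one (including the pseudogene ADAM6), 19 ADAMTS enzymes and 4 TIMPs.

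RNA came from NB4, an acute promyelocytic leukaemia line that carries the PML-RARA fusion, called naive in the labels, and from an ATO resistant NB4 clone. The sample labels name the clone NB4-VM-AsR1 and the methods of the study NB4-EV-AsR1, and the names were taken to mean 1 line. Both lines grew in RPMI medium with 10% FBS, and the resistant cells had been kept without ATO for 1 week, so no flask was described as exposed to ATO at harvest. Each line gave 2 independent flasks, each hybridised to its own 1-colour Agilent 4x44k array. All 4 arrays lay on 1 slide with the naive flasks in the first positions, so position on the slide and line cannot be told apart. The resistant line is 1 clone, so the spread between its flasks says nothing of other resistant clones.

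MMPs are zinc endopeptidases that cleave collagens, other matrix proteins and cell surface proteins, and are made as inactive proenzymes. ADAMs are membrane proteins with a disintegrin domain, and those with an intact active site release the outer parts of cytokines, receptors and adhesion molecules from the cell surface. ADAMTS enzymes are secreted and cut matrix proteins, procollagens or von Willebrand factor. TIMPs bind the active site of these enzymes and block it. In myeloid cells the families are known for roles in migration through tissue and in the release of surface proteins such as tumour necrosis factor.

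Of the 64 members, 30 were measured well enough to be tested, and 4 of these differed between the lines by the brightest probe of the gene. ADAM28 rose in the resistant line, while MMP15, MMP25 and ADAMTS18 fell. A further gene, ADAM22, rose by 1 of its 3 probes. These 5 genes carried 7 called probes, and the sequences of the probes of 4 of them are shown first, since their changes are changes in binding to these stretches. Each line gives the first 30 of the 60 bases of a probe in its own 5′ to 3′ direction, in lower case because no base is singled out, after the position of the whole probe on hg19. The position is the one the array files give, and the exon, intron or UTR was not annotated here. The probes of ADAM28 lie on a chromosome for which no sequence is shown.

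MMP15 brightest probe, chr16:58080484-58080543 (+): tccttcctcttttccttcccaaagcaagca
MMP15 second probe, chr16:58079526-58079585 (+): gaccatttgtttctgtttccccgactgggg
MMP25, chr16:3110418-3110477 (+): atgggtagagtcacttaggggccacttcct
ADAMTS18 brightest probe, chr16:77316364-77316423 (-): gttaaatttagcagcatacttcgttcccat
ADAMTS18 second probe, chr16:77328905-77328964 (-): aaagatccagtgtgtgcaaaagaagccctt
ADAM22 brightest probe, chr7:87832103-87832162 (+): tagtattcacttcggaagctaataagatac
ADAM22 second probe, chr7:87825870-87825929 (+): tcatggaatcactgcaaatctatctgctct
ADAM22 dimmest probe, chr7:87795178-87795237 (+): acagacactggataggttctgattgcaaca

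Sequence before the transcription start was available from RefSeq (GRCh38.p14) for 37 of the 64 members, among them ADAM22, MMP15 and ADAMTS18 but not MMP25 and ADAM28. The 250 bases before the start of these 3 genes are shown because both directions of change are among them. Capitals mark the GC box, GGGCGG on either strand, the letters bound by SP1 family factors.

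ADAM22, chr7:87934001-87934250 (+): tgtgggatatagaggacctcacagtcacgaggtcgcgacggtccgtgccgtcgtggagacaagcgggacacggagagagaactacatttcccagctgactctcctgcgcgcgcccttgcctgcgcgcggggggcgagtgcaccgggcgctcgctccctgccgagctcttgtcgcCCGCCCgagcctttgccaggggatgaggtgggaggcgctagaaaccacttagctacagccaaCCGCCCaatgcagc
MMP15, chr16:58025504-58025753 (+): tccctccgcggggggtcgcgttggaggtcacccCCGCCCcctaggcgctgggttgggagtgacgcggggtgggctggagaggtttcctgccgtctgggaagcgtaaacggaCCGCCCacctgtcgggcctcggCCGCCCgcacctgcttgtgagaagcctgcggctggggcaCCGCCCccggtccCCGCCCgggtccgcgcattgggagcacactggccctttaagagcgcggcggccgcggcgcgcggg
ADAMTS18, chr16:77435035-77435284 (-): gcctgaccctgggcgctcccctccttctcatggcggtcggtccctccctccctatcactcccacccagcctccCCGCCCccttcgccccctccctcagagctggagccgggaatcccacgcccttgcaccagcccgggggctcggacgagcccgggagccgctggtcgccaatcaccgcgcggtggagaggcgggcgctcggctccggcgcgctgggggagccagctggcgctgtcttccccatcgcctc

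The GC box occurred 2 times in ADAM22, 5 times in MMP15 and 1 time in ADAMTS18. In the whole family 25 of 37 sequences held it (67.6%), against 42.3% of 27305 genes, and the median GC content was 68.4% in members and 58.0% in all genes. The AP-1 letters TGANTCA, on either strand, stood in 4 member sequences (10.8%, against 6.6% of all genes), those of ADAMTS12, MMP7, MMP10 and MMP20. TATAAA stood in 6 (16.2%, against 11.1%) and AGGAAG, the letters of the PEA3 site, in 9 (24.3%, against 28.7%). None of the 3 sequences printed above held the AP-1, TATA or PEA3 letters. These are matches of letters in a fixed window, and binding was not measured.

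All levels below are log2 of the background-subtracted spot signal minus the 75th percentile of its own array, so that 0 is a bright probe and the lowest signals well above background were near -6.35, -6.17, -6.32 and -6.63 on the naive 1, naive 2, resistant 1 and resistant 2 arrays. Probes differ in how well they bind, so levels were compared between flasks for the same probe and never between genes. A probe entered the test when the scanner software rated it well above background in both naive flasks, in both resistant flasks, or in all 4. A probe was called where the limma fit over all tested probes gave an adjusted p (Benjamini-Hochberg) under 0.05 and the lines differed at least 2-fold. With 2 flasks a line an exact two-sided permutation test of a single probe cannot go below p = 0.333, so all p-values here rest on the spread that limma pools across probes.

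Of all 28221 probes tested, 5.27% were called, 2.3% higher and 2.97% lower in the resistant line. Of the 45 member probes tested, 7 were called (15.6%), 3 higher and 4 lower, and 17 had an unadjusted p under 0.05. By gene, 5.47% of 20964 genes were called, against 4 of the 30 tested members (13.3%). The members that passed the filter through 1 line only had to differ, so these shares describe the tested members and not the family. The median change was -0.17 over the tested member probes and -0.02 over all tested probes. Under 2 alternatives, plain normexp background correction and the methods' t-test, 0 member probes were called. These settings also called 0 of all probes tested (28221 and 28054), so the loss of calls was not particular to the members. Of the 30 genes, 10 had a higher and 20 a lower mean in the resistant line, and 26 were not called. In 12 of the 30 the direction turned under some alternative. The split over all 20964 genes was not counted, and their median change was -0.01.

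Most promyelocyte markers gave signal in every flask, and most fibroblast and endothelial markers were above background on no array. All 8 promyelocyte markers listed (MPO, CTSG, ELANE, PRTN3, AZU1, CD33, CEBPE, LYZ) were tested, and ELANE (2.49) and AZU1 (1.17) rose on the log2 scale. ELANE was above background in only 1 naive flask, and the other 7 in both. Of 8 fibroblast markers, 5, including the collagen genes COL1A1, COL1A2 and COL3A1, were above background on no array, and none of the other 3 was called. THY1, among these 3, was above background in every flask. Of 6 endothelial markers 4 were above background on no array and TIE1 fell by 2.72. Of 6 monocyte markers on the array 4 were above background in every flask, and MARCO rose by 1.87. The summed signal of the list, relative to the 75th percentile, was 2.95 and 3.42 in naive and 6.76 and 7.74 in resistant flasks. Most of that sum was CSF1R, which was not called (change 1.23, adjusted p = 0.0519 by limma), while CD14 (-0.50) and C1QA (-0.77) had lower values and CD163 and C1QB were above background on no array. Of 6 lymphocyte markers CD3D, not above background in either resistant flask, was at least 169-fold lower there, and the summed signal of that list was 3.07 and 3.42 against 1.60 and 1.73. Of 6 erythroid markers none was called. The part of these shifts in the results below was not tested, and in RNA from a whole flask fewer cells of a kind and less RNA per cell cannot be told apart.

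**Figure D1:**
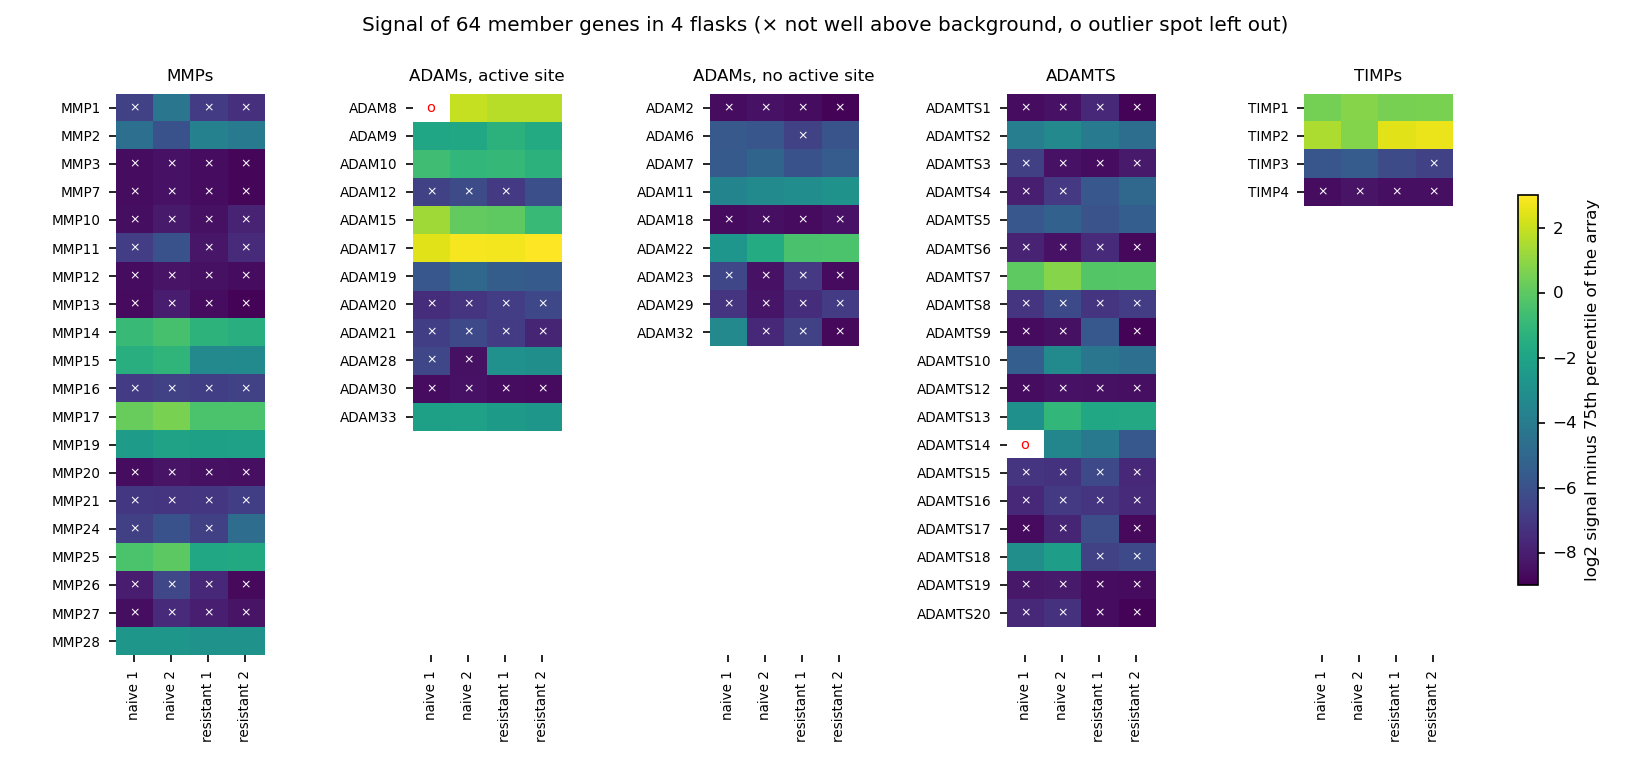
Log2 signal minus the 75th percentile of the array (colour) of each of the 64 member genes (vertical axis, by role) in the 4 flasks (horizontal axis), by the tested probe with the highest mean or, where none was tested, the brightest probe. White crosses mark signals not well above background and red circles the 2 values left out as outlier spots. Crosses fill most rows of the collagenases and stromelysins (MMP1, MMP3, MMP10, MMP13), and ADAM28, ADAMTS4 and ADAMTS18 have crosses in both flasks of 1 line and signal in both flasks of the other.

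Of the 20 MMPs, 7 were tested, 0 rose and 2 fell, and 10 were above background on no array. With so few genes, the share called (28.6%, beside 5.47% of all genes) says little of the role. The 2 that fell, MMP15 and MMP25, are both anchored in the cell membrane. The median change of the 7 tested was -0.63 on the log2 scale, beside -0.01 over all 20964 genes tested.

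MMP15, or MT2-MMP, crosses the membrane and cleaves matrix proteins at the cell surface. Its brightest probe read -1.45 and -1.15 in the naive flasks and -3.35 and -3.25 in the resistant flasks. Both resistant flasks lay below both naive flasks, and the lines differed by more than 1 log2 step at their nearest. The change was -2.0 ± 0.235 (SE, n = 2 flasks a line, adjusted p = 0.0111 by limma), a 4.01-fold fall. The second probe, dimmer and upstream in the gene, read -5.44 and -5.38 in naive and -6.84 and -7.10 in resistant flasks. Neither resistant signal cleared the background, which gives a fall of at least 2.09-fold (fitted change -1.56 ± 0.230, adjusted p = 0.0239 by limma). This second probe entered the test through the naive flasks alone, so the filter all but fixed its direction. Its fall adds no independent support to that of the first probe. With normexp the change at the brightest probe was smaller, -1.43 and called with bright local backgrounds reset and -1.01 and not called without.

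MMP25, or leukolysin, is held at the surface of leukocytes by a lipid anchor. Its single probe read -0.39 and -0.04 in naive and -1.82 and -1.69 in resistant flasks. The 2 lines did not overlap and the gap between them was wider than either pair of flasks. The change was -1.54 ± 0.243 (SE, adjusted p = 0.0297 by limma), a 2.91-fold fall.

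With either resistant flask left out, neither MMP15 nor MMP25 was called by its brightest probe, while the changes stayed close. In those fits limma took the spread from the naive pair and assumed it for the lone resistant flask. For MMP15 the change was -1.95 with resistant 1 left out and -2.05 with resistant 2 left out. For MMP25 the changes in the same order were -1.48 and -1.60. With no filter on dim probes MMP25 was not called (adjusted p = 0.0636 by limma).

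The other membrane-anchored MMPs with signal were not called. MMP17, which also has a lipid anchor, read 0.22 and 0.59 in naive and -0.41 and -0.41 in resistant flasks (change -0.81 ± 0.244, adjusted p = 0.162 by limma). MMP14, or MT1-MMP, the activator of proMMP2, read -0.93 and -0.48 against -1.26 and -1.41 (change -0.63 ± 0.261, adjusted p = 0.279 by limma). In both genes the resistant flasks lay below the naive ones without overlap. With 2 flasks a line, such an order alone cannot go below p = 0.333 by an exact two-sided permutation test. MMP24 was above background in 1 flask of each line and MMP16 in none, so neither was tested.

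MMP2, the gelatinase that MMP14 activates together with TIMP2, read -4.62 and -5.97 in naive and -3.71 and -4.08 in resistant flasks. Both resistant flasks were higher, but the naive flasks stood 1.35 apart, and the change of 1.41 ± 0.481 was not called (adjusted p = 0.207 by limma). MMP19 changed by 0.11 by its brightest probe, and its other probes gave -0.52 and 0.56, none called. MMP28, or epilysin, gave -0.25 and 0.25 by its 2 probes.

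Several collagenase and stromelysin genes lie together on chromosome 11. Among probes with a position in the array files, 7 members stood on hg19 between positions 102394029 and 102815085 of that chromosome: MMP7, MMP27, MMP10, MMP1, MMP3, MMP12 and MMP13. The files give no position for MMP20, which was above background on no array. None of the 7 genes' probes was tested, and MMP1, interstitial collagenase, was the only one with signal above background, on 1 array (naive 2). A signal under background on an array bounds these genes and does not show that they are silent.

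**Figure D2:**
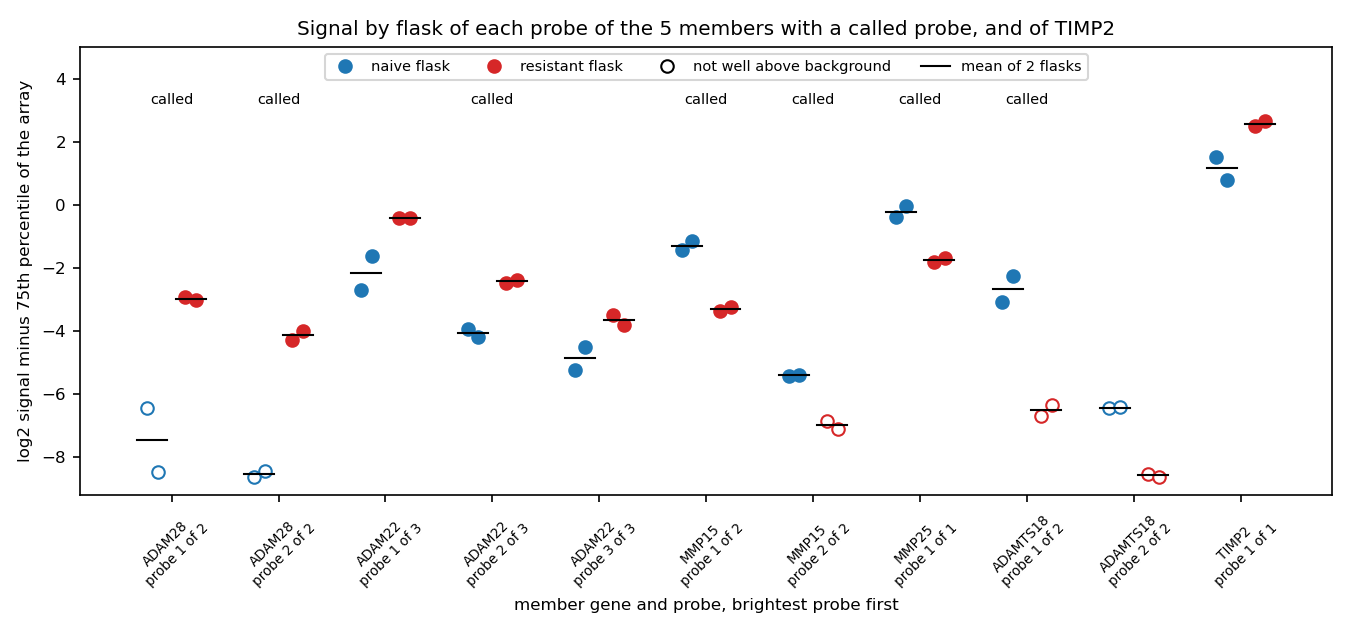
Log2 signal minus the 75th percentile of the array (vertical axis) in each naive (blue) and resistant (red) flask for every probe of the 5 genes with a called probe and of TIMP2 (horizontal axis), with open symbols where the signal was not well above background and a bar at the mean of 2 flasks. All probes of ADAM28 and ADAM22 sit higher in the resistant flasks and those of MMP15, MMP25 and ADAMTS18 lower, while TIMP2 sits at 2.48 and 2.66 against 1.51 and 0.79 without a call.

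Of the 12 ADAMs with an active site, 8 were tested, 1 rose and 0 fell (12.5% called, beside 5.47% of all genes). ADAM28, a membrane and secreted ADAM described in lymphocytes, gave the largest increase of any member. Its brightest probe read -6.44 and -8.46 in naive and -2.93 and -3.02 in resistant flasks. Neither naive signal was well above background and both resistant signals were, so the rise was at least 9.75-fold (fitted change 4.47 ± 0.657, SE, adjusted p = 0.0236 by limma). The second probe, at chr8:24193253-24193312 on hg19, read -8.63 and -8.42 in naive and -4.27 and -3.99 in resistant flasks. Its bound was lower, at least 4.38-fold (fitted change 4.40 ± 0.241, adjusted p = 0.00126 by limma). The naive flasks were 2.02 apart at the first probe and 0.21 apart at the second. None of these naive signals was well above background, so their spread does not show how well the rise repeats. Both probes entered the test through the resistant flasks alone, so the filter all but fixed their direction and the p-values add no support for it. The size depended on the background correction: with normexp and bright local backgrounds reset the first probe rose by 1.53 (adjusted p = 0.00592 by limma), and with plain normexp its change was 1.25 and not called, both under the bound above. With quantile normalization the first probe missed the threshold (change 4.56, adjusted p = 0.0631 by limma), as it did with no filter on dim probes.

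The general sheddases gave no call. ADAM17, which releases tumour necrosis factor and ligands of the EGF receptor, changed by 0.35, 0.13 and -0.10 by its 3 probes, all above background in every flask. ADAM10, which cleaves Notch receptors, changed by -0.30. ADAM8, a leukocyte ADAM, read 1.95 in naive 2 and 1.71 and 1.72 in the resistant flasks, and naive 1 was dropped as an outlier spot, so its change of -0.23 rests on 3 arrays. ADAM9 changed by 0.40 and -0.34 by its 2 probes, ADAM33 by -0.40 and -0.72, and ADAM19 by -0.16.

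ADAM15, an ADAM that carries an integrin-binding motif, read 1.29 and 0.11 in naive and 0.04 and -0.84 in resistant flasks. The naive flasks stood farther apart than the lines, and the change of -1.10 ± 0.501 was not called (adjusted p = 0.319 by limma). ADAM12, ADAM20, ADAM21 and ADAM30 were not tested.

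Among the ADAMs without an active site, ADAM22, a receptor for the secreted protein LGI1 in neurons, was the gene with a called probe. Its second probe read -3.92 and -4.18 in naive and -2.48 and -2.37 in resistant flasks and rose by 1.62 ± 0.231 (SE, adjusted p = 0.0212 by limma), or 3.08-fold. The brightest probe read -2.69 and -1.61 in naive and -0.43 and -0.41 in resistant flasks, and its change of 1.73 ± 0.394 was not called (adjusted p = 0.0848 by limma). The dimmest probe read -5.23 and -4.51 against -3.49 and -3.82 (1.21 ± 0.325, adjusted p = 0.126 by limma). All 3 probes were higher in both resistant flasks than in either naive flask. With the mean over the 3 probes in place of the brightest, the gene was called (change 1.52, adjusted p = 0.0425 by limma).

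ADAM11, a brain ADAM that like ADAM22 binds LGI proteins, differed between its 2 probes. The brighter gave 0.45 ± 0.236 and the other read -5.24 and -4.21 in naive and -2.73 and -2.85 in resistant flasks, a change of 1.93 ± 0.384 that was not called (adjusted p = 0.0590 by limma). ADAM7 changed by -0.38 and the pseudogene ADAM6 by -0.56. ADAM2, ADAM18, ADAM23 and ADAM29 were above background on no array.

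Of the 19 ADAMTS enzymes, 8 were tested, 0 rose and 1 fell (12.5% called, beside 5.47% of all genes). The one was ADAMTS18, a secreted enzyme with few known substrates, whose fall was the largest among the members. It read -3.07 and -2.26 in naive and -6.69 and -6.33 in resistant flasks. The resistant signals were not well above background, so the fall was at least 12.7-fold (fitted change -3.85 ± 0.345, SE, adjusted p = 0.00466 by limma). The probe entered the test through the naive flasks alone, so the filter all but fixed its direction. With normexp the fall was under that bound, at -1.46 with bright local backgrounds reset (adjusted p = 0.0218 by limma), and with plain normexp the change was -0.84 and not called. The second ADAMTS18 probe, which lies upstream in the transcript, was above background on no array and was not tested.

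ADAMTS4, or aggrecanase-1, went the other way in value without a call. It read -7.99 and -7.03 in naive and -5.73 and -4.99 in resistant flasks. It was above background only in the resistant flasks, and the change of 2.15 ± 0.431 had an adjusted p of 0.0602 by limma, with a bound of at least 1.87-fold. Under the replicate block and under a shift to the array median this gene was called.

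ADAMTS14 and ADAMTS2 remove the amino-terminal propeptide of fibrillar procollagens. ADAMTS14 read -3.51 in naive 2 and -4.16 and -5.68 in resistant flasks by its brighter probe, with naive 1 dropped as an outlier spot (change -1.41 ± 0.697). Its second probe read -5.51 and -4.07 against -6.51 and -6.58 and was not above background in either resistant flask (fitted change -1.76 ± 0.493, adjusted p = 0.14 by limma, with a bound of at least 3.16-fold lower). ADAMTS2 read -3.86 and -3.35 against -4.12 and -4.67 (change -0.79 ± 0.315, adjusted p = 0.267 by limma). No probe of either gene was called, and where both flasks of each line gave a value, the lines did not overlap. That order alone cannot go below p = 0.333 by an exact two-sided permutation test with 2 flasks a line.

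The remaining tested ADAMTS enzymes showed no call. ADAMTS7, which cleaves cartilage oligomeric matrix protein, read 0.02 and 0.81 in naive and -0.21 and -0.19 in resistant flasks (change -0.61 ± 0.325). ADAMTS13, the von Willebrand factor protease, read -3.0 and -1.06 in naive and -1.80 and -1.76 in resistant flasks, so the naive flasks lay on either side of the resistant ones. ADAMTS10, which binds fibrillin, did the same, at -5.41 and -3.26 against -4.31 and -4.63. ADAMTS5, or aggrecanase-2, changed by -0.17.

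Of the 4 TIMPs, 3 were tested and 0 were called. TIMP1, on the X chromosome, read 0.48 and 0.82 in naive and 0.55 and 0.61 in resistant flasks, a change of -0.07 ± 0.239. TIMP2, which inhibits MMPs and takes part in activating proMMP2, read 1.51 and 0.79 in naive and 2.48 and 2.66 in resistant flasks. Both resistant flasks were higher, and the change of 1.42 ± 0.315 had an adjusted p of 0.0785 by limma. It passed the threshold with an intensity trend in the variance model (adjusted p = 0.0490 by limma). With normexp and bright local backgrounds reset it passed too (adjusted p = 0.0327 by limma). It was not called under quantile or median normalization, the deposited table, no filter on dim probes or the replicate block. TIMP3, the inhibitor of ADAM17 and the aggrecanases, read -5.78 and -5.51 against -6.22 and -6.67 (change -0.80 ± 0.270, adjusted p = 0.203 by limma) and was not above background in resistant 2. TIMP4 was above background on no array.

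**Figure D3:**
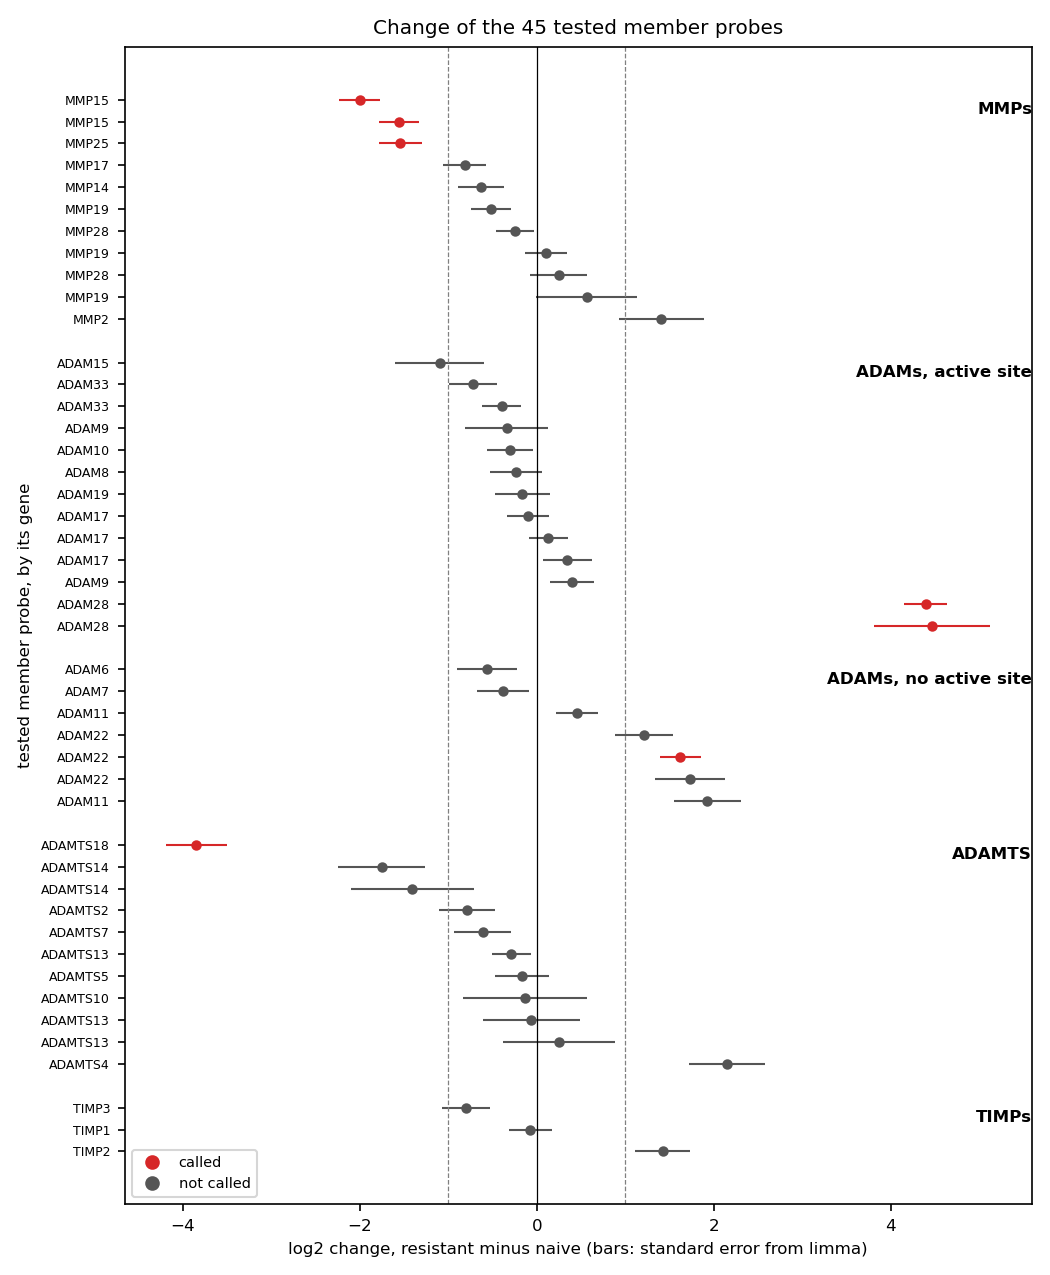
Log2 change, resistant minus naive (horizontal axis, with the standard error from limma), of each of the 45 tested member probes (vertical axis, named by gene and grouped by role), with called probes in red and dashed lines at 1 log2 step. The 7 called probes belong to MMP15, MMP25, ADAM28, ADAM22 and ADAMTS18.

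The naive flasks differed more from each other than the resistant flasks did. Over all tested probes the SD of the difference between flasks was 0.713 in naive and 0.371 in resistant cells. Of 43 tested member probes with both naive values, 11 had naive flasks more than 1 log2 step apart and 0 had resistant flasks that far apart. In 16 of the 43 the naive flasks stood farther apart than the lines. With a naive flask left out, limma takes the spread from the resistant pair and assumes it for the lone naive flask. More probes were then called, among the members and over all tested probes alike. With a resistant flask left out, fewer were called in both. Such counts rest on the spread of the remaining pair and are no result about the members.

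**Figure D4:**
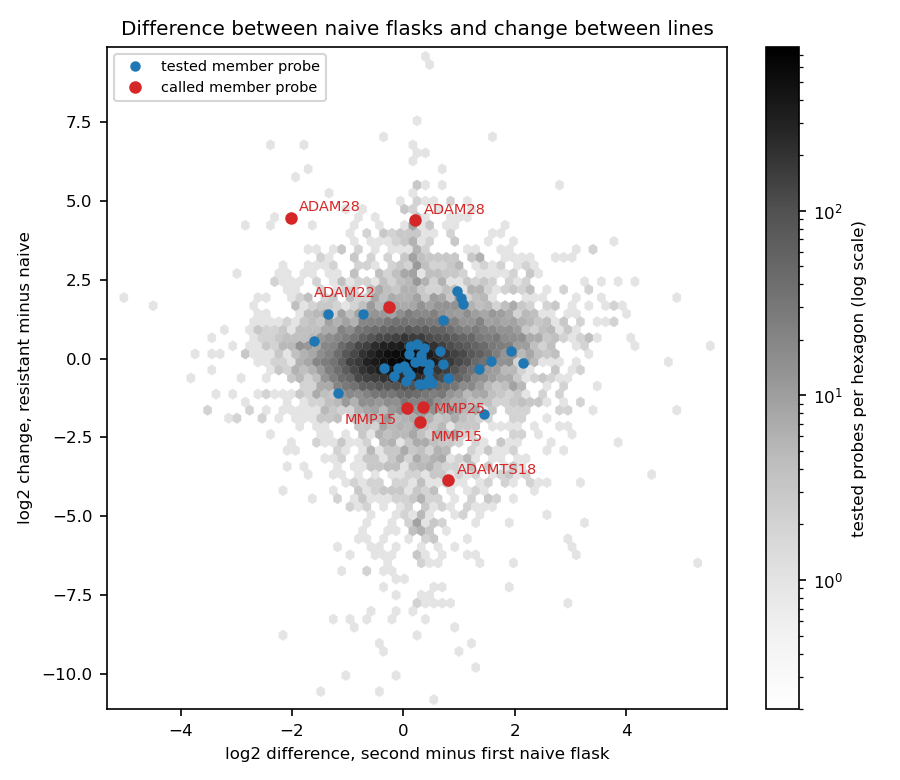
Log2 change between the lines (vertical axis) against the log2 difference between the naive flasks (horizontal axis) for the 43 tested member probes with both naive values (blue, called in red) over all tested probes with both naive values (grey hexagons, shaded by number on a log scale). The called probes of MMP15, MMP25 and ADAM22 and one of ADAM28 lie near 0 on the horizontal axis. The called ADAMTS18 probe lies at 0.80 and the other ADAM28 probe at -2.02.

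The 3 genes that fell by their brightest probe, MMP15, MMP25 and ADAMTS18, all lie on chromosome 16, at separate places. Over the 1199 tested probes on that chromosome the median change was -0.04, rank 9 of 23 chromosomes from the lowest, and 1.75% were called lower. Within 1 megabase on each side of the called probe, 8 other probes were tested around ADAMTS18, with 0 called and a median change of 0.09. Around MMP15, 45 were tested with a median of -0.28, and GPR56, an adhesion receptor, fell (-2.35). Around MMP25, 98 were tested, 0 fell and 4 rose, the named genes among them being ZG16B (3.34) and HCFC1R1 (1.42). Around ADAM28 none of 11 was called, and around ADAM22 4 of 15 rose, those of TP53TG1 (2.17 and 1.85), C7orf23 (3.05) and CROT (1.30). These neighbours are no members and were named after their values were seen.

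The genes that act around the families were taken in 6 lists of 107 genes, of which 78 were tested, 1 rose and 7 fell (10.3% called, beside 5.47% of all genes), with a median change of -0.09. The lists were chosen with earlier results of these data known. A higher share called than over all genes may thus come from the choice, and these counts only describe the listed genes.

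Among inducers and transcription factors of MMP genes, 0 of 19 tested rose and 3 fell. FOSL1, a subunit of AP-1, read -1.85 and -1.66 in naive and -3.97 and -4.35 in resistant flasks (change -2.40, adjusted p = 0.00744 by limma). ETS1, an ETS factor that binds many MMP promoters, read -0.13 and 0.64 against -2.12 and -2.79 (-2.70, adjusted p = 0.0202 by limma). ETV4, the PEA3 factor, read 0.06 and 0.22 against -1.80 and -1.94 (-2.01, adjusted p = 0.00923 by limma). In each of the 3 the resistant flasks lay below both naive flasks, which adds nothing to the calls. The other 16, among them JUN, FOS, RELA and STAT3, were not called by their brightest probe, though JUNB had 1 of its 2 probes called.

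Among 24 tested surface proteins that ADAMs or other sheddases release, 1 rose and 2 fell. TNF, the classical ADAM17 substrate, read 4.09 and 3.31 in naive and 0.41 and 0.56 in resistant flasks, a fall of 3.22 (adjusted p = 0.00666 by limma). HBEGF, a ligand of the EGF receptor, read -0.94 and -0.37 against -2.09 and -2.44 (-1.61, adjusted p = 0.0475 by limma). SELPLG, the P-selectin ligand of leukocytes, read -0.39 and 0.32 against 1.88 and 1.85 (1.90, adjusted p = 0.0319 by limma). For each of these the lines did not overlap, which adds nothing to the calls. The median of the 24 was -0.03.

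Of 8 tested activators of proenzymes, 1 fell. PCSK6, a proprotein convertase, read -3.93 and -2.90 in naive and -6.72 and -6.75 in resistant flasks, where it was not above background (at least 8.30-fold lower, adjusted p = 0.0105 by limma). This probe too was tested through the naive flasks alone, so its direction was all but fixed. The convertase FURIN and the urokinase gene PLAU were not called. Of 10 tested inhibitors and ADAMTS-like genes 0 were called, with a median of 0.65, and RECK, the membrane inhibitor of MMPs, changed by 0.60. Of 10 tested partners of ADAM10 or ADAM17, 0 were called, with a median of -0.16. Of 7 tested other metalloproteinases 1 fell, ANPEP or CD13, the myeloid aminopeptidase N, at 3.54 and 3.50 in naive and 1.69 and 1.70 in resistant flasks (-1.83, adjusted p = 0.0112 by limma). In the same list CPM, a carboxypeptidase, was not called by its brightest probe but had 1 of its 2 probes called.

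**Figure D5:**
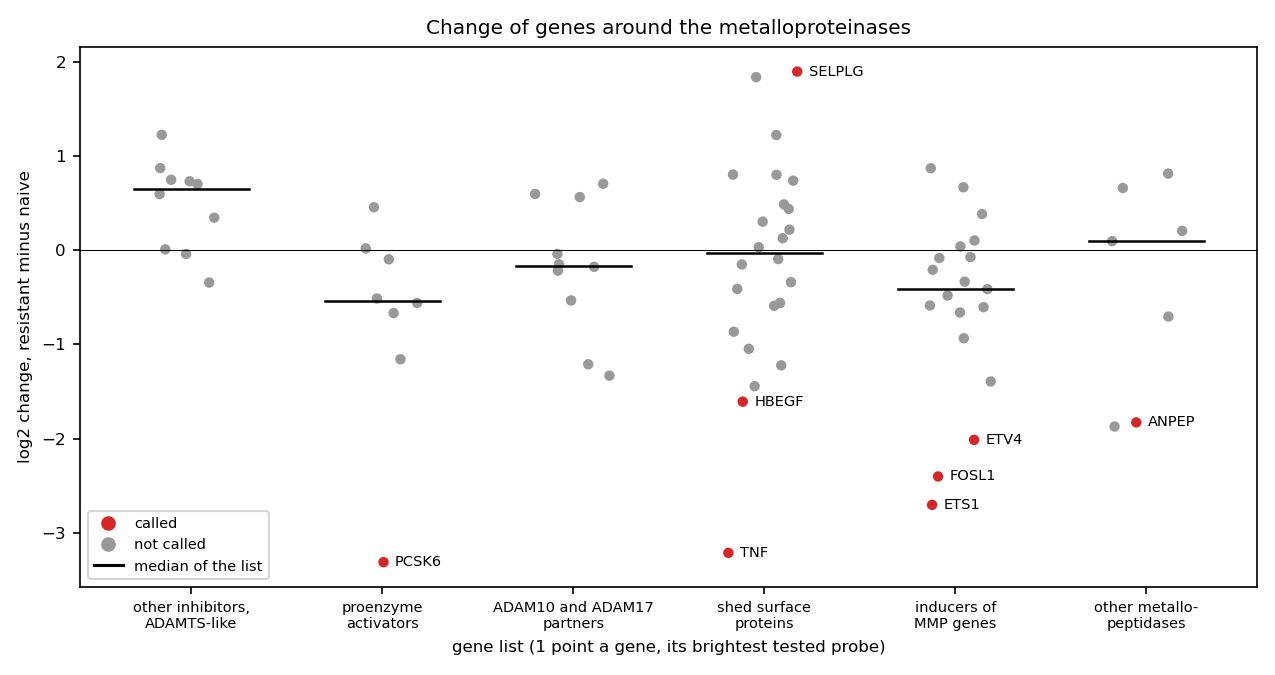
Log2 change, resistant minus naive (vertical axis), of the 78 tested genes in 6 lists around the metalloproteinases (horizontal axis), each point 1 gene by its brightest tested probe, called genes in red with their names and a bar at the median of each list. The called genes are SELPLG above 0 and PCSK6, TNF, HBEGF, FOSL1, ETS1, ETV4 and ANPEP below it.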

How the data were processed

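Total RNA of 2 naive and 2 resistant flasks was labelled with Cy3 and hybridised to 1-colour Agilent arrays of 45015 spots. The authors extracted spot intensity from the images with Agilent Feature Extraction 10.5.1.1, and the deposited scanner intensity (background-subtracted processed signal) was the starting point here. The deposited log2 table, shifted per array to the 75th percentile by the authors (GeneSpring GX), was an alternative, with r from 0.9998 to 0.9999 against the values used.

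Control spots (43376 of the spots were not controls) and spots marked as outliers were left out, which removed 2 member values, and log2 signals were averaged over the spots of each of 41000 probes and shifted by the 75th percentile of the array. Between 27922 and 28244 probes were well above background per array, and 458 to 565 were saturated, none of them a member. The number of arrays limits the precision. Probes well above background in both flasks of either line (28221) were fitted with limma 3.58.1 in R 4.3.3 (lmFit, eBayes), with Benjamini-Hochberg adjustment over all of them and a minimum of 2-fold. The code was tested on simulated data. A gene was given by its brightest tested probe. For a probe not well above background in 1 line, the fold bound set the mean of the brighter line against the mean, per array, of the lowest signal well above background or the probe itself, whichever was higher.

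The members, the gene lists and the tests were chosen with earlier results of these data known. Every member with a called probe was named with all its values, the 10 uncalled genes with the largest change by flask and the others by change, and of the other lists called genes first. RefSeq accessions of 89 of the 95 probes matched a current symbol, all the same as on the array. ADAM5P, now ADAM5, was not taken by the name rule. Alternatives were normexp background correction (offset 50, with and without local backgrounds over 100 reset), quantile and median normalization, the deposited table, other filters, the methods' t-test, an intensity trend, no fold minimum, a replicate block and each flask left out.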

Additional observations from a re-analysis of the deposited data

How the results depend on the processing

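The number of called member probes (7) was 5 to 9 with the bright local backgrounds reset before normexp, quantile or median normalization, the deposited table, no filter on dim probes, an intensity trend, no fold minimum and the replicate block (8 probes and 5 genes, among them ADAMTS4). Plain normexp, under which the median change of all tested probes moved from -0.02 to 0.13, called 0 member probes and 0 genes (3 member probes at an unadjusted p under 0.05). The methods' t-test, on 2 flasks a line, also called 0 member probes and 0 genes after Benjamini-Hochberg adjustment (10 member probes at an unadjusted p under 0.05). Over the whole array these 2 settings called 0 of 28221 and 0 of 28054 probes tested. The cause was not tested. Requiring signal on all 4 arrays left 33 member probes, of which 3 were called, and 2 genes, since probes dim in 1 line are then not tested. With no filter, 2 member genes and 5 of the genes in the other lists were called. Leaving out 1 flask gave 3 to 18 called member probes, 2 to 11 member genes and 2 to 26 genes of the other lists. The flask differences of the 2 lines correlated at 0.119 over probes, and flasks with the same number in their titles share only that number. A slide block was not run because there was 1 slide. Of 469 values of the 30 tested genes under the alternatives, 414 stayed on the same side in direction and threshold, 15 lost a call, 18 gained one and 22, in 12 genes and in no called gene, turned direction. With plain normexp the turned changes were 0.25 for ADAM19, 0.31 for ADAM6, 0.25 for ADAM7, 0.0513 for ADAMTS10, 0.0488 for ADAMTS14, 0.24 for ADAMTS5, 0.0088 for MMP28 and 0.23 for TIMP3. With bright backgrounds reset they were 0.0591 for ADAM19, 0.0164 for ADAM6 and 0.0115 for TIMP3. ADAM8 was 0.21 in the deposited table. With the mean over all probes ADAMTS13 was -0.0332 and MMP28 0.00057. Leaving out 1 flask gave -0.52 to 0.19 for ADAM19, -1.20 to 0.95 for ADAMTS10, -0.72 to 1.22 for ADAMTS13, -0.43 to 0.10 for ADAMTS5, -0.0505 to 0.26 for MMP19 and -0.24 to 0.10 for TIMP1. Depth on an array is signal over background, and 27 member genes were above it on no array.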

Other observations

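Another 7 member genes gave signal above background on some arrays without qualifying for a test. ADAM32, a testis ADAM, read -3.37 in naive 1 and -7.68, -6.62 and -8.76 in naive 2, resistant 1 and resistant 2. MMP1 read -4.31 in naive 2 and was not above background elsewhere, and MMP11, or stromelysin-3, read -5.98 in the same flask. ADAMTS9 read -5.70 and ADAMTS17 -6.18 in resistant 1 alone. ADAM12 read -6.09 in resistant 2 alone. MMP24 was above background in naive 2 (-5.99) and resistant 2 (-4.71). Single-array signals also came from second probes of tested genes, ADAM19 in naive 2 (-4.22) and ADAMTS2 in naive 1 (-6.06).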
